A study of Mus musculus with 156 samples.

Results

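The 8 genes described here are the Id genes Id1, Id2, Id3 and Id4 with Smad6, Smad7, Bmp4 and Bambi, all tied to bone morphogenetic protein (BMP) signalling. They were taken by gene symbol from the 40914 genes of the deposited tables, and all 8 were found and all 8 passed the filter on low counts in both experiments. The study switched on the long noncoding RNA Firre with doxycycline in mouse embryonic stem cells and followed poly(A) RNA by sequencing. Its 4 lines were labelled WT (here the WT control), WT with a Firre inducible transgene (the WT transgene line), Firre KO (the KO control) and Firre KO with the inducible transgene (the KO transgene line). Every line received doxycycline, including both controls without a transgene, and the 0 min libraries received none. A long course had 3 replicates per line at 0, 720, 1440, 2880 and 5760 min, and a short course had 2 replicates per line every 30 min from 0 to 330 min, 156 libraries in all. The gelatin cultures of every line contained serum, LIF and 2 kinase inhibitors, PD0325901 (against MEK) and CHIR99021 (against GSK3). The number of clones behind each line and what a replicate is (a dish or a separate culture) are not given, so p-values measure the spread between these libraries, which may be technical.

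BMP ligands bind pairs of type I and type II receptor kinases, which phosphorylate Smad1, Smad5 and Smad9; these join Smad4 and enter the nucleus to switch on target genes. The Id genes are classic direct targets. Their proteins carry a helix-loop-helix domain but no DNA-binding region, and they hold E proteins such as Tcf3 and Tcf12 away from DNA. Smad6 and Smad7, the inhibitory Smads, and Bambi, a receptor-like protein without a kinase domain, are induced by the pathway and dampen it, while Bmp4 is a ligand. In mouse embryonic stem cells BMP or serum, acting through Id genes, is known to support self-renewal together with LIF.

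By GENCODE M21 on mm10, Id1 lies at chr2:152736251-152737410 (plus strand), Id2 at chr12:25093799-25097140 (minus strand), Id3 at chr4:136143497-136145755 (plus strand) and Id4 at chr13:48261228-48266026 (plus strand). All 4 Id genes, Smad6, Smad7, Bmp4 and Bambi are protein coding, and every count below is over the whole gene. Antisense genes overlap Id4 and Bmp4; the library kit does not mark strand, and these antisense genes had at most 16 counts in any library. The promoters of Id2 and Id3 are shown because the results below turn on Id2 for the transgene and on Id3 for the knockout at 0 min and the changes over time. They are the 250 bases before the RefSeq start, from the RefSeq table for GRCm38.p6 (mm10), written 5′ to 3′ on the gene's strand. Both stretches lie inside the GENCODE spans given above, so these RefSeq starts lie downstream of the outermost GENCODE starts. Capitals mark GGCGCC, the core of GC-rich elements bound by Smad1 and Smad5.

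Id2, chr12:25096093-25096342, minus strand: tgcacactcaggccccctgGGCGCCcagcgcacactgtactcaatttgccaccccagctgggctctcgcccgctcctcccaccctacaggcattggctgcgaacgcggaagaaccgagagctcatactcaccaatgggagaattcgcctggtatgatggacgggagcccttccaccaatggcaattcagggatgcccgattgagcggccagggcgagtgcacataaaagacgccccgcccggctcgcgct
Id3, chr4:136143572-136143821, plus strand: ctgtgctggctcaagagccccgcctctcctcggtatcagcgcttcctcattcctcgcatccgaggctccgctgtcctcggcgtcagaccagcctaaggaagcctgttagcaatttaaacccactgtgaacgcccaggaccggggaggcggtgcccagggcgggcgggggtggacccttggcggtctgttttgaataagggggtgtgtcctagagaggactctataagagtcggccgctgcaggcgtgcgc

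The Id2 promoter held 1 GGCGCC, starting 231 bases before the RefSeq start, and the Id3 promoter held none. The Id4 window, not shown, also held 1, and those of Smad6 and Bmp4 held none. Windows of Id1, Smad7 and Bambi were not searched. Of all 32851 RefSeq windows of the same length (300 bases, 250 before and 50 after a start), 11.87% held GGCGCC on either strand. The longer form, GGCGCC followed by GTCT after a gap of 5 bases, was in 0.07% of windows and in none of the windows of Id2, Id3, Id4, Smad6 and Bmp4. The shorter GTCT was in 87.98% of windows, so its presence tells little. The E-box CACGTG, which overlaps none of the other motifs, was in 7.15% of windows and, among these genes, in that of Bmp4. These matches describe letters in the windows and are not evidence of binding.

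The other 4 genes were placed in the same annotation. Smad6 lies at chr9:63953076-64022059 (minus strand), Smad7 at chr18:75367529-75395935 (plus strand), Bmp4 at chr14:46383520-46390669 (minus strand) and Bambi at chr18:3507923-3516404 (plus strand). No sequence of these 4 genes is shown.

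Over the 156 libraries the most abundant of the 8 was Id3, with a median of 41.5 TPM (transcripts scaled to transcript length and library size) and a range of 17.2 to 79.8. Smad7 came next with a median of 33.2 TPM (16.4 to 54.3), then Id2 with 19.1 (9.48 to 62.3) and Id1 with 13.5 (4.98 to 33.8). The ranges of these 4 neighbours overlapped, and the order of Smad7 and Id2 turned by course: the medians were 23.4 and 26.0 TPM in the long course and 37.6 and 15.2 TPM in the short course. Bambi (median 4.99 TPM), Id4 (4.45) and Smad6 (4.10) were lower and close to each other. Bmp4 was the lowest with a median of 2.46 TPM and a range of 0.623 to 7.17. Its counts per library were 25 to 169, against a median of 1001 for Id3, so Bmp4 values carry the widest error of the 8. The TPM of Bmp4 also moved apart from its counts: the 3 KO control libraries at 1440 min had 3.90, 0.671 and 1.72 TPM from 51, 36 and 33 counts. The tests below use the counts. Of 40 called tests of changes over time, responses included, the mean TPM changed in the direction of the counts in 37 and in the opposite one in 3, which are named where they appear.

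Long-course libraries held 18961799 to 47948630 counts each and short-course libraries 19013652 to 37195019. Firre, checked first, was at a mean of 0.39 TPM in the KO control and 24.2 in the WT control at 0 min of the long course. Long-course Firre means in the KO transgene line were 0.895 TPM before doxycycline and 49.4 TPM at 720 min, and in the WT transgene line 46.1 and 113 TPM. The short-course peaks, both at 120 min, were 465 and 1162 TPM. Embryonic stem cell markers were high in the libraries (median Pou5f1 1093 TPM, Nanog 667 TPM), as the labels say. Of 8 fibroblast or feeder markers, Lum, Dcn, Col3a1 and Twist2 had medians of 0, and 3 of the 8 passed the filter on low counts in each course. Of these 3, 2 were lower over the long course in both controls. In those tests 54.8% (WT control) and 59.6% (KO control) of all genes passed in either direction. The WT control library of replicate 3 at 1440 min stood apart by its level of the small RNA Rn7s1, 1541 TPM against 14.6 and 21.9 TPM; without it Id4 no longer passed in the 720 to 1440 min step of the WT control, and the other 87 of 88 long-course values recomputed without it kept their call. Changes in bulk RNA cannot tell fewer cells of a type from less RNA per cell. The comparisons with the KO control, the WT control, the KO transgene line and the WT transgene line share libraries, so they are not independent of each other.

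**Figure D1:**
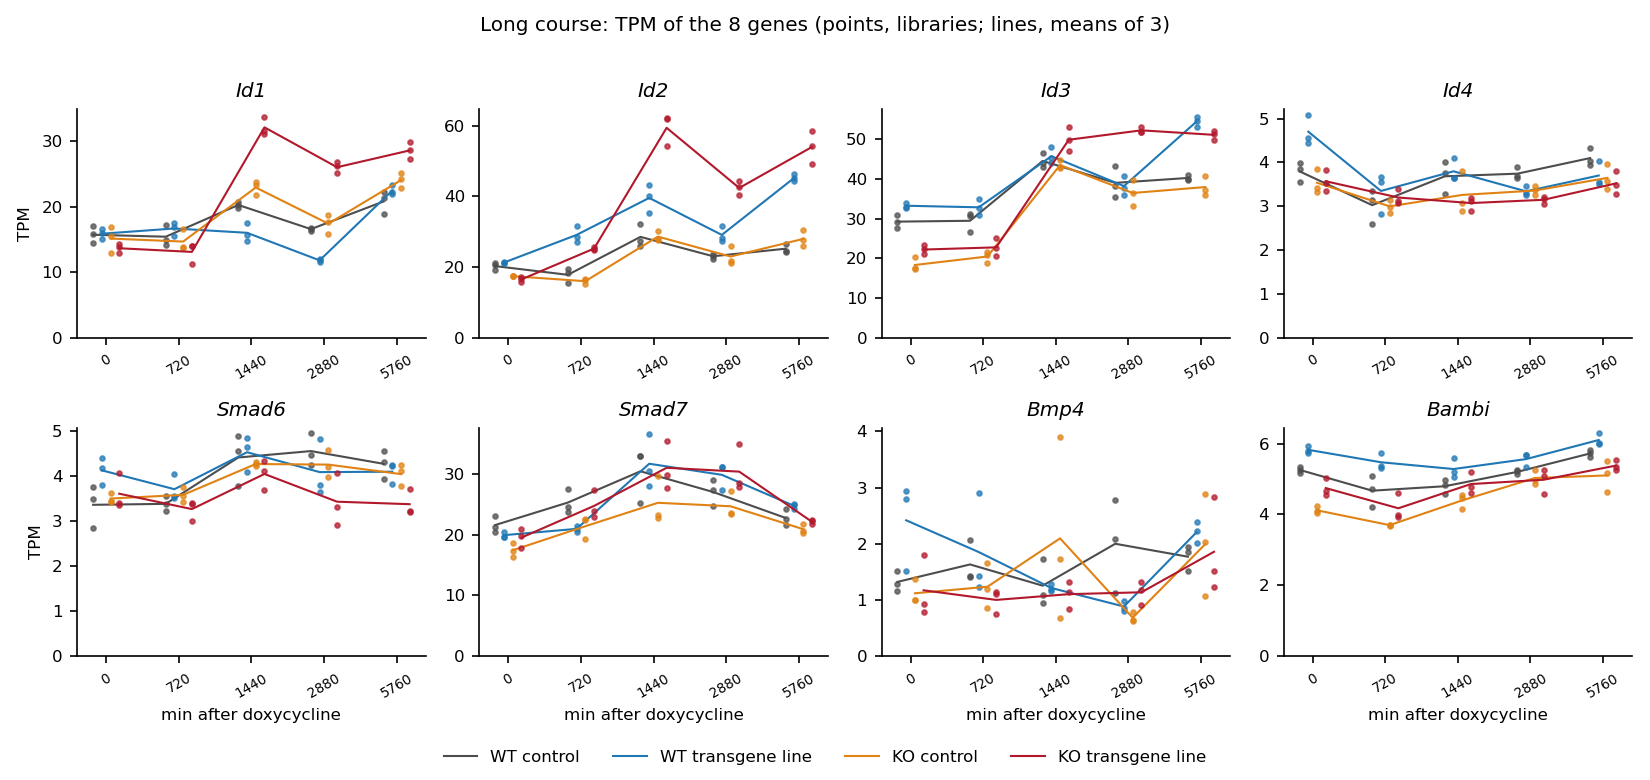
Levels in the long course in TPM (y axis, from 0) against min after doxycycline (x axis, categories not to scale), 1 panel per gene. Points are libraries and lines join means of 3 for the 4 lines; in the Id2 panel both transgene lines lie above their own control at all 4 times after 0 min, and in the Id3 panel the KO lines start lowest and rise by 1440 min.

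The first question is how the 8 genes stood in cells without Firre before any doxycycline. In the long course Id3 had 20.2, 17.5 and 17.2 TPM in the 3 KO control libraries at 0 min, and its mean in the WT control was 29.2 ± 1.65 TPM (SD, n = 3). The groups did not overlap, and Id3 was lower in the KO control by a log2 fold change of -0.61 ± 0.07 (SE; adjusted p = 4.74e-11, edgeR quasi-likelihood F test with Benjamini-Hochberg adjustment over all genes, as for every test here). In all, 5 of the 8 genes were lower and none was higher: Id3, Smad7 (-0.29 ± 0.05), Id2 (-0.21 ± 0.07), Bmp4 (-0.60 ± 0.18) and Bambi (-0.37 ± 0.06). Among all 17565 genes tested, 35.1% passed in either direction and 18.6% were lower. Without replicate 3, 3 of the 8 passed, and Id2 (adjusted p = 0.161, edgeR) and Bmp4 (0.0856) did not. Id2 also did not pass without replicate 2 (0.160), and Bmp4 not without replicate 1 (0.0511). Id1 showed no difference at this time, with 17.0, 12.9 and 15.5 TPM in the KO control and 17.0, 15.8 and 14.4 TPM in the WT control. Its log2 fold change was -0.0008 ± 0.09 (adjusted p = 0.997, edgeR).

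The short course repeated this comparison with other libraries, and there Id1 differed. It had 8.28 and 9.58 TPM in the KO control at 0 min against 16.0 and 14.1 TPM in the WT control, a log2 fold change of -0.78 ± 0.15 (adjusted p = 0.000208, edgeR). Id2 had 15.3 and 14.7 TPM in the KO control against 22.0 and 20.1 TPM in the WT control (-0.55 ± 0.12). Id4 was lower by -0.60 ± 0.11, Smad7 by -0.44 ± 0.09 and Id3 by -0.40 ± 0.10 on the log2 scale. So 5 of the 8 genes were lower, against a background of 7.51% of the 18009 genes tested in either direction and 4.1% lower. Id2, Id3 and Smad7 were lower in the KO control in both courses, though Id2 in the long course only with all replicates or without replicate 1. Id1 and Id4 passed in the short course alone, and Bmp4 and Bambi in the long course alone; the difference between courses was not tested. Smad6, which encodes the BMP-selective inhibitory Smad, did not pass at 0 min in either course, with log2 fold changes of 0.08 and -0.19.

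The difference in Id1 and Id2 held through the short course. At all 11 times after 0 min both KO control libraries were below both WT control libraries for Id1 and for Id2. Over the 24 libraries of each line Id1 ran from 6.81 to 10.9 TPM in the KO control and from 11.7 to 16.7 TPM in the WT control, without overlap. Averaged over all short times, 7 of the 8 genes were lower in the KO control (45.7% of genes passed in either direction): Id1 by -0.69, Id2 by -0.55, Bmp4 by -0.50, Smad7 by -0.30, Id4 by -0.28, Id3 by -0.22 and Smad6 by -0.10 on the log2 scale. Bambi, at 0.02, did not pass. Averaged over all long times (52.2% of genes passed), Bmp4 (-0.73), Id3 (-0.32), Smad7 (-0.24), Bambi (-0.23) and Id4 (-0.15) were lower, while Id1 (0.03) and Id2 (-0.05) did not pass. These means over times were added after the data were seen.

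**Figure D2:**
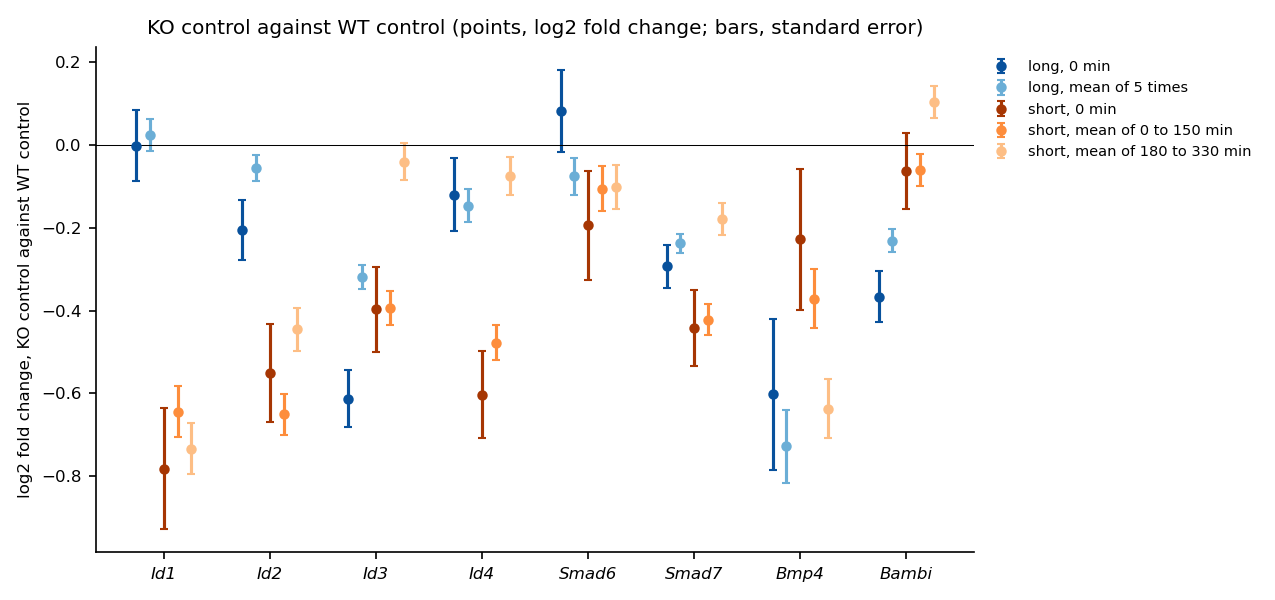
Log2 fold change of the KO control against the WT control (y axis) for the 8 genes (x axis) at 0 min and as means over times of both courses. Points are estimates and bars standard errors; Id1 sits near 0 in the long course and between -0.64 and -0.78 in the short course, and Id3 is at -0.61 at 0 min of the long course.

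The transgene lines also differed from their controls before doxycycline, which bears on every response below. At 0 min of the long course Id3 was higher in the KO transgene line than in the KO control (log2 fold change 0.28 ± 0.07, adjusted p = 0.0108, edgeR), the 1 gene of the 8 to pass where 3.54% of all genes did. It did not pass without replicate 2 or without replicate 3. In the WT transgene line Id3 (0.25), Id4 (0.31) and Smad6 (0.29) were higher than in the WT control, where 13.2% of all genes passed. This count fell to 0 without replicate 1 and to 1 without replicate 2. Smad6 did not pass with any 1 replicate left out or in DESeq2 (adjusted p = 0.0593, DESeq2). In edgeR it also did not pass without the filter on low counts (adjusted p = 0.0524), with library totals (0.0606) or with only the lines compared (0.0645). At 0 min of the short course none of the 8 passed in edgeR or DESeq2 in either background. Of all genes 0.161% passed for the KO lines and 2.93% for the WT lines. At an unadjusted p under 0.05 the count was 4 of 8 in the KO background, against 12.4% of all genes, and 1 of 8 in the WT background, against 15%. The responses below are therefore changes from 0 min in the transgene line minus changes from 0 min in its control, called rescue in the KO background and overexpression in the WT background.

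In the controls, time in culture after the medium change and doxycycline without a transgene cannot be told apart, and the Id genes changed strongly with them. Id3 in the KO control went from a mean of 18.3 ± 1.64 TPM (SD, n = 3) at 0 min to 43.5 ± 1.18 TPM at 1440 min, a log2 fold change of 1.20 ± 0.07. In the WT control it went from 29.2 to 44.5 ± 1.87 TPM (0.66). All 8 genes passed over the long course in both controls, where 54.8% of all genes passed in the WT control and 59.6% in the KO control. In counts all 8 were higher at their time of largest change in the WT control: Id3, Id2 (0.65) and Smad7 (0.43) at 1440 min, Smad6 (0.57), Id4 (0.34) and Bambi (0.28) at 2880 min, and Id1 (0.55) and Bmp4 (0.48) at 5760 min. Averaged over the times after 0 min, the change of Bmp4 was 0.01 ± 0.14. For Id4 and Bambi the mean TPM at 2880 min was not higher than at 0 min (log2 change of the mean TPM -0.02 for each), so their direction depends on the scale. In the KO control 7 were higher in counts, led by Id3, Id2 (0.90 at 1440 min) and Id1 (0.71 at 5760 min). The seventh, Id4 (0.29 at 2880 min), again went the other way in TPM, from 3.54 to 3.36, and it did not pass with library totals (adjusted p = 0.0826, edgeR) or without replicate 1 (0.0728) or 2 (0.116). Bmp4 passed over the course with values on both sides of 0, -0.46 at 2880 min and 0.44 at 5760 min, and it did not pass without replicate 2 (adjusted p = 0.0936, edgeR).

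The rise came between 720 and 1440 min. At 720 min the log2 changes of Id2 and Id3 in both controls lay between -0.03 and -0.004. From 720 to 1440 min 6 of the 8 genes rose in the WT control (15.5% of all genes rose) and 6 in the KO control (19.5% rose); Id1, Id2, Id3, Smad6 and Smad7 were among them in both. Id1 rose in this step by 0.48 in the WT control, by 0.78 in the KO control and by 1.42 ± 0.08 in the KO transgene line on the log2 scale. In the WT transgene line it did not, with a log2 change of -0.02 (adjusted p = 0.893, edgeR). The WT transgene line changed in 41.8% of all genes in that step and the KO transgene line in 39.4%. Embryonic stem cell markers moved in the same step, 8 of 8 higher in the KO control and 4 of 8 in the WT control, as did trophoblast markers, 4 of 6 higher in both; their part in the rise of the Id genes was not tested.

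The time courses of the 2 controls differed for Id3, Bambi and Id2, where 18.8% of all genes passed. From 0 to 1440 min Id3 rose more in the KO control than in the WT control, by 0.53 on the log2 scale (adjusted p = 1.17e-06, edgeR), and by 1440 min the means were 43.5 and 44.5 TPM. Bambi rose more in the KO control by 0.27 at 2880 min (adjusted p = 0.0156, edgeR) and Id2 by 0.31 at 5760 min (adjusted p = 0.0408, edgeR). Leaving out any 1 replicate left 1 of these 3 genes past the threshold. Id2 also did not pass in DESeq2 (adjusted p = 0.0632, DESeq2). In edgeR it did not pass with relative log expression factors (adjusted p = 0.0541) or with only the lines compared (0.0566). Bambi did not pass without the filter on low counts (adjusted p = 0.0995, edgeR).

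Id2 responded most to the transgene in Firre KO cells. At 1440 min it had 54.2, 62.3 and 61.9 TPM in the KO transgene line against 30.1, 27.9 and 27.8 TPM in the KO control, having started at 15.7, 17.0 and 16.7 TPM against 17.4, 17.3 and 17.5 TPM. At 5760 min it had 49.1, 54.3 and 58.6 TPM against 30.5, 25.8 and 27.6 TPM. Every KO transgene library lay above every KO control library at all 4 times after 0 min, and none did at 0 min. The rescue response of Id2 was 1.09 ± 0.10 on the log2 scale at 1440 min, a 2.12-fold larger change (adjusted p = 5.80e-15 over the course, edgeR). It was already present at 720 min, with 25.0, 25.7 and 24.9 TPM against 15.1, 16.4 and 16.5 TPM (response 0.66 ± 0.10, adjusted p = 1.09e-05, edgeR). Of the 8 genes Id2 was the 1 that passed at 720 min, a time at which 0.854% of all genes did. At 2880 min the response was 0.94 ± 0.10 and at 5760 min 1.03 ± 0.10; at 1440, 2880 and 5760 min 6.46%, 4.83% and 5.35% of all genes passed.

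The level of Id2 in the KO transgene line went past that of cells with endogenous Firre. At 1440 min the WT control had 25.9, 27.4 and 32.3 TPM, and its highest library was below the lowest of the KO transgene line. At 0 min the order from low to high was the KO transgene line, the KO control, the WT control and the WT transgene line, and the libraries of the last 2 overlapped. At 1440 min it was the WT control and the KO control, which overlapped, then the WT transgene line and the KO transgene line, without overlap between these. No test was made between the KO transgene line and the WT control.

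Id1 responded in Firre KO cells later than Id2. At 720 min it had 14.0, 11.2 and 14.0 TPM in the KO transgene line and 13.8, 13.7 and 16.6 TPM in the KO control, which overlapped (response 0.05 ± 0.13). At 1440 min it had 31.6, 31.1 and 33.8 TPM against 21.8, 23.3 and 23.8 TPM, a response of 0.68 ± 0.12 (adjusted p = 1.51e-05, edgeR). At 2880 min it had 25.1, 26.2 and 26.8 TPM against 18.7, 17.7 and 15.8 TPM, again a response of 0.68 ± 0.12. The lines did not overlap at 1440, 2880 or 5760 min, and at 5760 min the response was 0.39 ± 0.12. Over the course the adjusted p was 5.68e-07 (edgeR).

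In all, 3 of the 8 genes had a higher rescue response over the long course, Id2, Id1 and Smad7, and none a lower one, where 11.5% of all genes passed and 5.56% were higher. With each gene taken at its time of largest size, the median response of the 8 was 0.22, against -0.05 over all genes. Smad7, the inhibitory Smad that also dampens TGF-beta signalling, had 35.4, 29.9 and 27.8 TPM at 1440 min against 22.8, 23.3 and 29.7 TPM in the KO control, which overlapped. Its response was 0.23 ± 0.07 (adjusted p = 0.0333, edgeR), and it did not pass without replicate 1 (adjusted p = 0.123, edgeR), without replicate 2 (0.344) or with library totals in place of TMM scaling (0.0895). Id3 had 52.3 ± 0.65 TPM at 2880 min in the KO transgene line against 36.4 TPM in the KO control, from 22.2 and 18.3 TPM at 0 min. Its response of 0.21 at that time did not pass over the course (adjusted p = 0.0827, edgeR). It did pass without replicate 1 (0.0182) and without the filter on low counts (0.00384). Smad6 (-0.44 ± 0.14 at 2880 min), Id4 (-0.24), Bambi (-0.23) and Bmp4 (0.70 ± 0.29) did not pass.

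**Figure D3:**
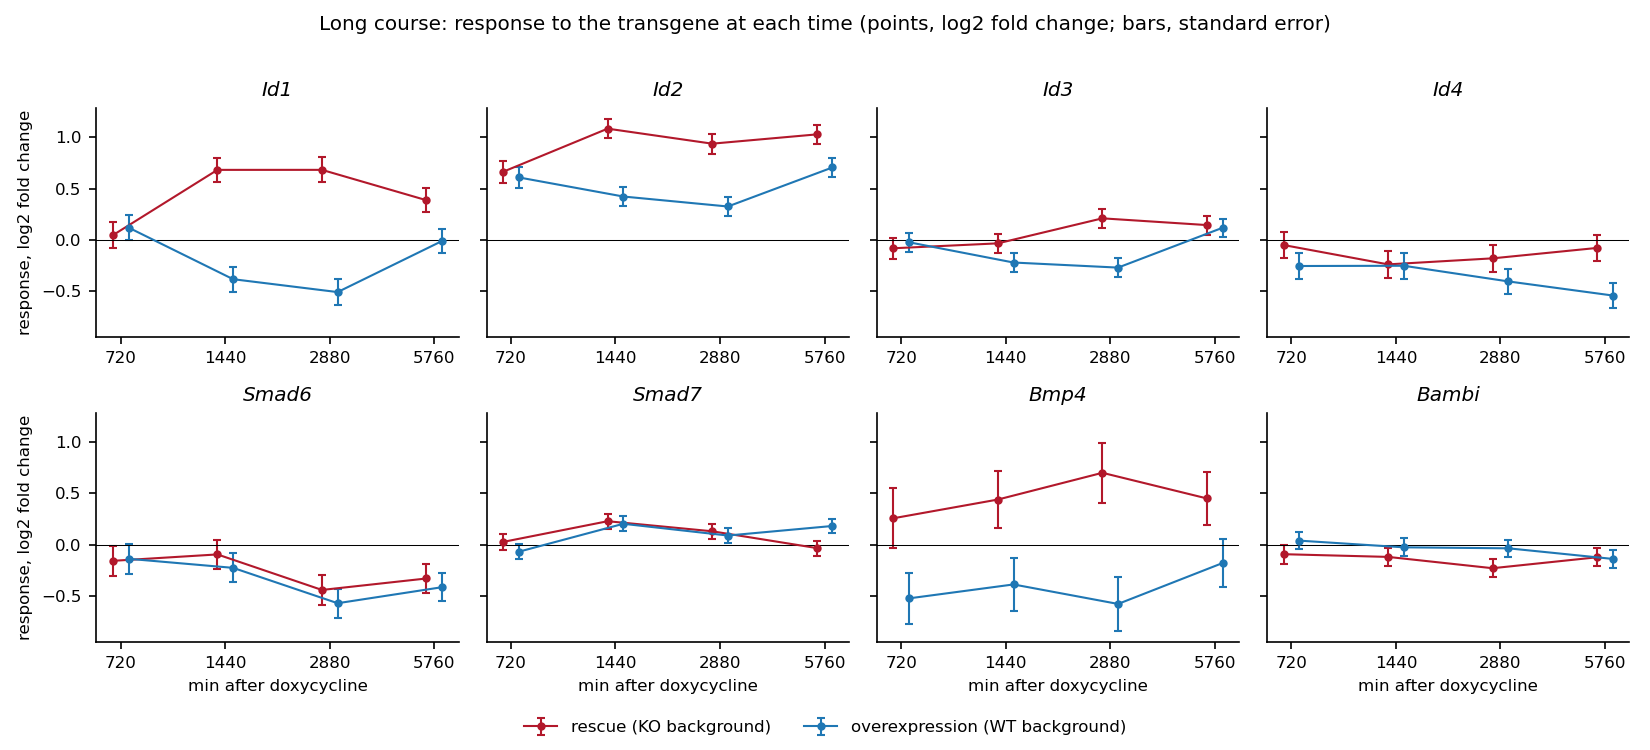
Response to the transgene on the log2 scale (y axis) at 4 times in min (x axis), 1 panel per gene, in the KO background (rescue, red) and the WT background (overexpression, blue). Points are estimates and bars standard errors; the Id2 points lie above 0 in both backgrounds, while those of Id1 at 2880 min are at 0.68 in the KO and -0.51 in the WT background.

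In cells with endogenous Firre, Id2 again responded to the transgene. At 5760 min it had 45.2, 44.3 and 46.4 TPM in the WT transgene line against 24.6, 26.6 and 24.4 TPM in the WT control, from 21.0, 21.5 and 21.3 TPM against 19.1, 20.5 and 21.1 TPM at 0 min. All WT transgene libraries lay above all WT control libraries at all 4 times after 0 min. The overexpression response of Id2 was 0.71 ± 0.10 at 5760 min, a 1.63-fold larger change (adjusted p = 3.33e-07 over the course, edgeR). At 720 min it had 28.4, 31.7 and 27.1 TPM against 19.4, 18.4 and 15.6 TPM, a response of 0.61 ± 0.10 (adjusted p = 3.51e-05, edgeR). As in the KO background, Id2 was the 1 gene of the 8 to pass at 720 min, where 0.581% of all genes did. At 2880 min, where 2.56% of all genes passed, the response of 0.33 ± 0.10 did not (adjusted p = 0.0516, edgeR).

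Id1 moved the other way in the WT background. At 2880 min it had 11.8, 12.1 and 11.5 TPM in the WT transgene line, below all 3 WT control libraries at 16.7, 16.4 and 16.7 TPM. The lines started level, with 16.6, 15 and 16.0 TPM against 17.0, 15.8 and 14.4 TPM at 0 min. The overexpression response was -0.51 ± 0.13 at 2880 min (adjusted p = 0.000234 over the course, edgeR). At 5760 min the lines overlapped, with 23.3, 21.9 and 22.2 TPM against 21.3, 22.2 and 18.9 TPM, and the response was -0.01. Without replicate 3 the response over the course did not pass (adjusted p = 0.104, edgeR).

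Over the long course 6 of the 8 genes passed in the WT background, where 9.79% of all genes did: Id2 and Smad7 with a higher response (4.16% of all genes) and Id1, Id3, Id4 and Smad6 with a lower one (5.63%) at their time of largest size. Id4, the least abundant Id gene here, went from 4.70 TPM at 0 min to 3.70 TPM at 5760 min in the WT transgene line while the WT control went from 3.80 to 4.10 TPM, a response of -0.54 ± 0.12 (adjusted p = 0.0139 over the course, edgeR). Smad6 was at 4.13 ± 0.30 TPM (SD, n = 3) at 0 min and 4.09 ± 0.64 at 2880 min, while its control went from 3.37 ± 0.47 to 4.56 ± 0.37 TPM (-0.57 ± 0.14). Both genes began higher in the WT transgene line than in the WT control at 0 min, and the libraries of the lines overlapped at 3 of the 4 later times for Id4 and at all 4 for Smad6. The Id3 response was -0.27 ± 0.09 at 2880 min and 0.12 at 5760 min, and that of Smad7 0.20 ± 0.07 at 1440 min. Id3, Id4, Smad6 and Smad7 did not pass without replicate 2 or without replicate 3. These left 2 and 1 of the 8 genes past the threshold, while all-gene calls went from 1720 to 297 and 644. Id4 did not pass without replicate 1 either (adjusted p = 0.0828, edgeR). Bmp4 (-0.58 ± 0.27) and Bambi (-0.14) did not pass. Bambi lay above its control in all WT transgene libraries at all 4 later times, but also at 0 min, with 5.80, 5.94 and 5.74 TPM against 5.18, 5.27 and 5.33 TPM.

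The rescue and overexpression responses were compared directly by a test of their difference, in which 5.32% of all genes passed. For Id1 the rescue response exceeded the overexpression response by 1.19 ± 0.18 at 2880 min (adjusted p = 2.41e-09, edgeR). For Id2 the difference was 0.66 ± 0.14 at 1440 min (adjusted p = 0.000169, edgeR), the response being positive in both backgrounds. For Id3 it was 0.48 ± 0.13 at 2880 min (adjusted p = 0.0195, edgeR). The differences of Id2 and Id3 did not pass without replicate 2 (adjusted p = 0.0685 and 0.351, edgeR) or without replicate 3 (0.0619 and 0.271). That of Id1 passed in every setting tried. Bmp4 had the largest estimate of the 8, 1.28 ± 0.40, and did not pass (adjusted p = 0.213, edgeR).

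Markers of other cell types were read in the same libraries. The rescue response was lower for 5 of 8 embryonic stem cell markers (Klf4 -0.43, Pou5f1 -0.19, Tfcp2l1 -0.17, Nanog -0.15 and Sox2 -0.15), and 0 were higher. Of 6 trophoblast markers 3 were higher (Krt18 1.07 at 2880 min, Krt8 0.73 and Tfap2c 0.37) and 1 was lower (Eomes -0.44). The summed trophoblast marker level at 2880 min was 114 to 117 TPM in the KO transgene line and 63.0 to 66.8 TPM in the KO control. At 720 min, when Id2 already differed, these sums were 32.5 to 35.4 and 30.5 to 32.9 TPM, which overlapped. The defining trophoblast markers Elf5 and Cdx2 had medians of 0.0814 and 0.501 TPM over all libraries. In the WT background 2 of 6 trophoblast markers had a higher response (Krt8 0.32 and Tfap2c 0.23), and at 2880 min the sums were 53.2 to 56.4 TPM in the WT transgene line and 51.0 to 54.7 TPM in its control. Of all genes 11.5% passed in the long rescue response (5.56% higher) and 9.79% in the long overexpression response (4.16% higher). The part of these markers in the responses of Id1 and Id2 was not tested.

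The short course covers the first 330 min after doxycycline, before the response of Id2 seen at 720 min. In the KO background Id2 ran from 9.48 to 15.3 TPM over the 24 KO transgene libraries and from 9.92 to 15.3 TPM over the 24 KO control libraries. Its rescue response averaged 0.09 ± 0.13 on the log2 scale (adjusted p = 0.609, edgeR). At 330 min it had 14.3 and 15.3 TPM in the KO transgene line against 13.03 and 15.2 TPM in the KO control. In the WT background Id2 was above the control in both replicates at 8 of the 11 times after 0 min, with 21.8 and 22.6 TPM at 330 min against 16.9 and 15.9 TPM, but its overexpression response over the course did not pass (adjusted p = 0.472, edgeR). Averaged over the times after 0 min without subtracting 0 min, the WT transgene line had more Id2 than the WT control by 0.19 on the log2 scale; 40.3% of all genes passed that test, which was added after the data were seen.

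Id4 was the 1 gene of the 8 with a rescue response in the short course, where 1.82% of all genes passed. Over 180 to 330 min it ran from 3.76 to 4.77 TPM in the KO transgene line and from 3.82 to 5.92 TPM in the KO control; at 270 min the pairs were 4.002 and 3.76 TPM against 5.92 and 5.00 TPM. At 0 min the order was opposite, with 5.99 and 6.33 TPM against 4.83 and 5.30 TPM, and the response includes this difference at 0 min. The mean response was -0.45 ± 0.11 (adjusted p = 0.00812, edgeR), and it did not pass without replicate 1 or without replicate 2. At single times Id4 passed at 270 min (-0.82, where 0.633% of all genes passed), and Id3 (-0.51) and Smad6 (-0.64) passed at 180 min (4.08%). These responses of Id3 and Smad6 also include a difference at 0 min. There the KO transgene line was above the KO control by 0.33 for Id3 and 0.365 for Smad6, neither passing. At 180 min the libraries of the 2 lines overlapped for both genes, and mean Smad6 was 4.08 TPM against 3.92 TPM in the KO control. Over the course the mean rescue response of Id1 was -0.32 ± 0.165 and did not pass (adjusted p = 0.704, edgeR). Both KO transgene libraries lay below both KO control libraries for Id1 at 6 of the 11 times after 0 min and above at 1. The means of Id3 (-0.38), Smad6 (-0.43), Smad7 (-0.12), Bmp4 (-0.04), Id2 (0.09) and Bambi (0.03) did not pass either. For overexpression none of the 8 passed in edgeR or DESeq2, where 126 of all genes (0.7%) did; at an unadjusted p under 0.05 there were 2 of 8, Id2 and Smad6, against 8.22% of all genes. For the difference of rescue and overexpression none passed with either tool, where 3 of all genes (0.0167%) did, and 1 of 8, Smad6, had an unadjusted p under 0.05, against 11.1% of all genes.

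**Figure D4:**
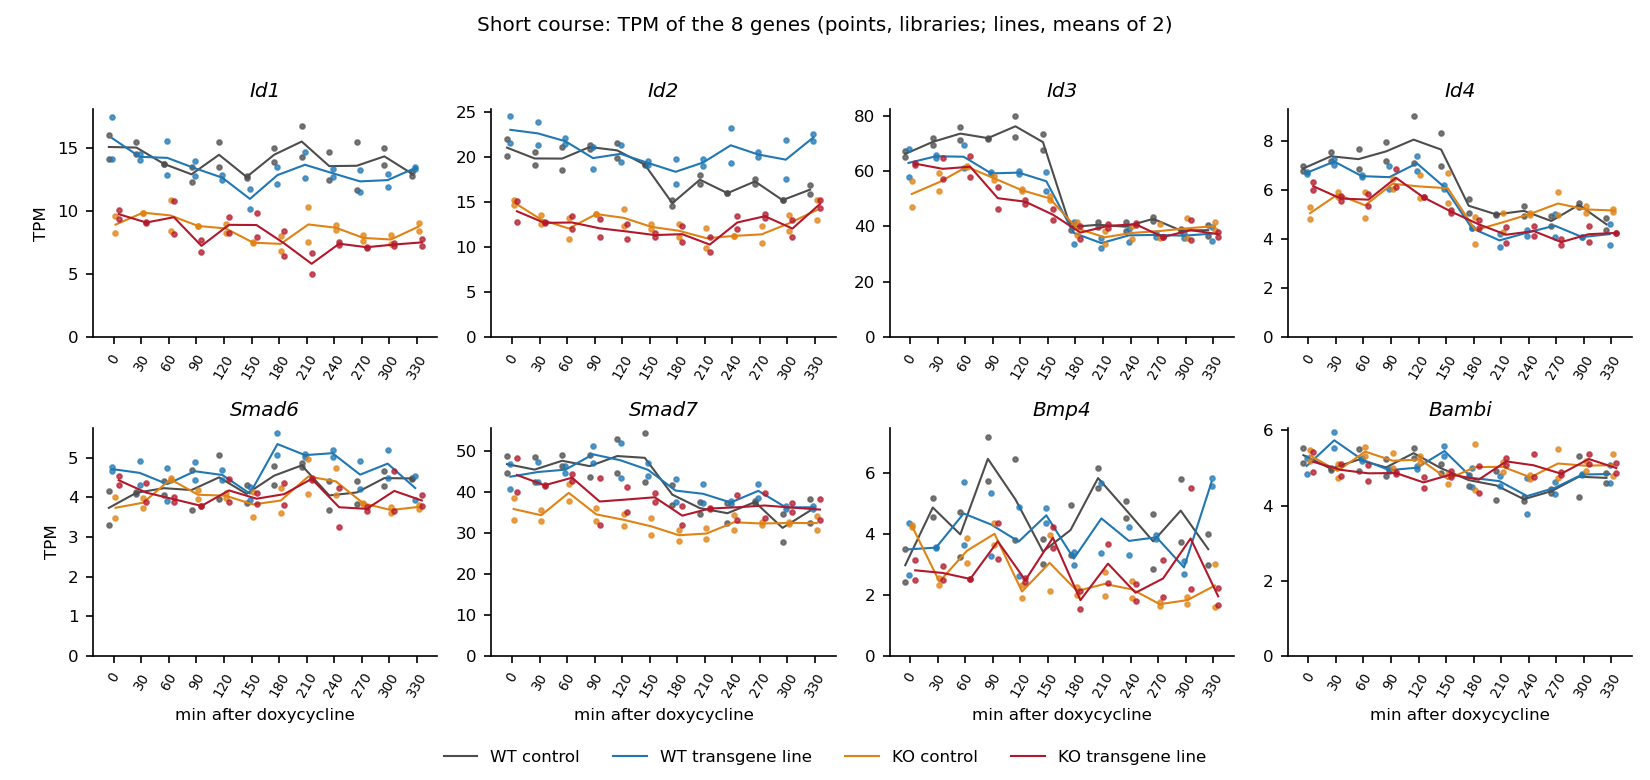
Levels in the short course in TPM (y axis, from 0) against min after doxycycline (x axis), 1 panel per gene. Points are libraries and lines join means of 2; Id1 and Id2 run lower in both KO lines, and Id3 in the WT control drops between 150 and 180 min from 67.6 and 73.2 to 41.0 and 38.6 TPM.

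Id3 ended the short course lower than it began in all 4 lines, in the WT control through a single step. There it had 67.6 and 73.2 TPM at 150 min and 41.0 and 38.6 TPM at 180 min. The WT transgene line moved from 59.7 and 52.9 to 41.6 and 33.7 TPM, in the KO control from 50.9 and 49.4 to 36.9 and 41.6 TPM, and in the KO transgene line from 42.3 and 46.2 to 35.4 and 40.1 TPM. In the KO transgene line most of the fall came earlier, from 63.0 and 62.3 TPM at 0 min. No WT control library from 180 to 330 min (36.7 to 43.4 TPM) reached any from 0 to 150 min (65.2 to 79.8 TPM). Between these windows Id3 fell by 0.86 in the WT control, by 0.83 in the WT transgene line, by 0.51 in the KO control and by 0.50 in the KO transgene line on the log2 scale. Id4 fell in all 4 lines too (by 0.58, 0.72, 0.18 and 0.44 in the same order), as did Smad7 (by 0.37, 0.33, 0.13 and 0.16). Id2 fell by 0.33 in the WT control and by 0.13 in the WT transgene line, and did not pass in the KO lines.

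The step was not particular to these genes: 30.5% of all genes passed between the windows in the WT control, 33.5% in the WT transgene line, 15.9% in the KO control and 14.2% in the KO transgene line. The windows were chosen after the data were seen, and what else differed between libraries on either side of the step was not tested. Over the whole short course Id2, Id3, Id4, Smad7 and Bambi passed in the WT control, all lower (21.8% of all genes passed). In the KO control (13.3%) Id2 (-0.24), Id3 (-0.14) and Bmp4 (-0.19) passed with a lower mean and Id4 (0.15) with a higher one. With only the lines compared, Id2, Id4 and Bmp4 did not pass in the KO control (adjusted p = 0.0582, 0.0696 and 0.0942, edgeR), while Smad7 did (0.0424). The courses of the 2 controls differed for Id4 (0.36, adjusted p = 0.000263, edgeR) and Smad7 (0.16, adjusted p = 0.0436, edgeR), where 4.93% of all genes passed. Id4 did not pass without replicate 2 (adjusted p = 0.102, edgeR). Smad7 turned to -0.0581 without replicate 1 and did not pass without replicate 2 (adjusted p = 0.149, edgeR), with 1 coefficient per time (0.229) or with only the lines compared (0.0606). For Id3 the adjusted p was 0.0636. After the step the controls were close in Id3: the KO control was at -0.04 on the log2 scale against the WT control over 180 to 330 min (35.3% of all genes passed), after -0.39 over 0 to 150 min (35.9%).

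Other genes of the pathway were read from lists chosen by role. The parts that receive the signal were expressed: the type I receptor Bmpr1a had a median of 36.1 TPM, the type II receptor Bmpr2 4.04, Smad4 31.4, Smad5 13.3 and Smad1 9.58 TPM, while Smad9 stood at 0.095 TPM. In the long rescue response none of 4 pathway Smads and none of 3 E proteins passed, 1 of 11 receptors was lower (Eng, a co-receptor, -0.35), and 1 of 8 tested ligands was lower (Bmp7 -0.39). Among 9 tested secreted inhibitors 2 were higher, Fst (0.65) and Fstl1 (0.22), and 2 lower, Chrd (-0.75) and Twsg1 (-0.23), with a list median of 0.21. Among 7 tested other BMP targets 3 were higher and none lower: Gata2 (0.67 at 2880 min), Gata3 (0.61 at 1440 min) and Dusp9 (0.39 at 5760 min), with a list median of 0.39. Of 8 intracellular regulators Skil (0.29) and Nedd4l (0.27) were higher and Tob1 (-0.30) lower. The median over all genes was -0.05. Of all genes 11.5% passed in either direction and 5.56% were higher, so a count of 1 gene in a list says little about that list.

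In the long overexpression response no gene of these lists was lower. Dusp9 (0.23) was the 1 of 7 other targets that was higher, Fst (0.45) and Fstl1 (0.19) were higher among 9 inhibitors, Rgmb (0.42), a BMP co-receptor, among 11 receptors, and Skil (0.26) and Tob2 (0.17) among 8 intracellular regulators. None of 8 ligands passed. Of all genes 9.79% passed in either direction, 4.16% higher and 5.63% lower, so a count of 1 gene in a list says little about that list. Fst, which encodes follistatin, a secreted binder of activins and some BMPs, also had a response in both backgrounds in the short course. Its mean response was 0.53 ± 0.10 in the KO background (adjusted p = 4.48e-14, edgeR) and 0.69 ± 0.09 in the WT background (adjusted p = 3.18e-22, edgeR). At 330 min Fst had 15.3 and 16.8 TPM in the KO transgene line against 9.44 and 7.39 TPM in the KO control, at a time when Id2 in these libraries overlapped.

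At 0 min of the long course the KO control had less Fst (-1.07), Fstl1 (-0.86), Chrd (-0.40) and Twsg1, 4 of 9 inhibitors, than the WT control, and none was higher. Of 8 intracellular regulators 5 were higher, among them Skil (0.51), Tob1 (0.38) and Smurf2 (0.37), and none was lower. Of the Smads 2 of 4 were lower, Smad1 (-0.16) and Smad4 (-0.14). Among 7 other targets Gata3 (-0.48) and Gata2 (-0.36) were lower and Dlx3 (1.19) higher. These counts stand against 16.5% of all genes higher and 18.6% lower. In the short course at 0 min Fst (-0.50) and Crim1 (-0.43) were lower and Twsg1 (0.19) higher among 9 inhibitors, while Fstl1, with 59.6 and 54.6 TPM in the KO control against 51.4 and 54.8 TPM in the WT control, did not pass, and 1 of 8 intracellular regulators was higher. There Gata3 (-0.68) and Dusp9 (-0.35) were the 2 of 7 targets lower, and none was higher. Of all genes 7.51% passed in that test in either direction and 4.1% were lower. Thus Gata3 was lower in the KO control in both courses, as were Id2, Id3 and Smad7, with the limit given above for Id2.

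The 8 genes did not vary as 1 block. Over the 20 group means of the long course and the 48 of the short course, Pearson's r of log2 CPM was 0.736 and 0.878 for Id1 with Id2, and 0.81 and 0.749 for Id3 with Smad7. Id2 with Id3 gave 0.855 in the long and 0.417 in the short course, and Id3 with Id4 0.437 and 0.892. Id1 with Bmp4 gave 0.351 and 0.847. Groups share lines, times and libraries' scaling, so these values are descriptions. Among 11858 other genes the one most like Id2 in both courses was Gask1b (r = 0.874 long and 0.921 short), followed by Lmo7 (0.867 and 0.897). Id1 was most like Vgll3 (0.851 and 0.863) and Fth1 (0.84 and 0.872), Id3 like Zfhx2 (0.883 and 0.865) and Agtrap (0.928 and 0.862), Smad7 like Zfp628 (0.895 and 0.903), and Bmp4 like Gja1 (0.921 and 0.842).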

How the data were processed

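Poly(A) RNA libraries of 156 samples were compared in 4 lines. The deposited estimated counts per gene (unit: expected counts) and TPM were made by the authors with Salmon 1.5.2 and mm10, per the submitters' processing notes; the TPM column, used for levels, sums to between 924452 and 947484 per library, and how it was scaled is not given in the sources used here. Of the deposited expected counts 76.0% were whole; all were rounded. Groups come from the labels. The 8 genes, lists and tests were chosen with earlier results of these data known.

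Each course was fitted alone over all genes in edgeR 4.0.16 (R 4.3.3): filterByExpr (minimum count 10, minimum total 15), TMM, robust quasi-likelihood F tests, Benjamini-Hochberg adjustment over all genes and a threshold of 0.05. In the long course each line and time had its own coefficient; tests over the course had 1 term per time after 0 min, and the fold change given is that at the time of largest size. Short-course tests over time used a natural spline with 3 df per line; the fold change given is the mean over the times after 0 min. Standard errors of single contrasts follow from the F value. Named genes were all 8 and at most 4 passing genes per pathway list with the smallest adjusted p. The most alike genes were taken by the lower of both courses' r among genes with a mean of at least 1 CPM. Cell type markers were a separate set without this limit. On simulated data with 200 changed genes the long rescue test recovered 200 with 9 other calls among 17152 genes, and the short one recovered 182 with 10 other calls among 17648. The median log2 fold change of the changed genes was 1.001 (long) and 1.003 (short), so recovery of smaller changes is not shown. Alternatives were no filter, relative log expression (RLE) factors in place of TMM, library totals, DESeq2 1.42.0, other designs and leaving out replicates. TPM were compared between lines and times only within a course; medians over all libraries are descriptions that pool both. Columns without a sample: 0.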

Additional observations from a re-analysis of the deposited data

Results flagged for a closer look

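These results concern genes whose change differed between 2 backgrounds by a test of the difference itself in edgeR. In the long course the response to the Firre transgene was larger in the KO than in the WT background for Id1 (difference 1.19 on the log2 scale, with 0.68 against -0.51 at 2880 min), Id2 (0.66, with 1.09 against 0.42 at 1440 min) and Id3 (0.48, with 0.21 against -0.27 at 2880 min). The change of the KO control over the long course was larger than that of the WT control for Id3 (0.53), Id2 (0.31) and Bambi (0.27). Those of Id2 and Bambi did not pass when any 1 replicate was left out. In the short course the mean change after 0 min was higher in the KO control than in the WT control for Id4 (0.36) and Smad7 (0.16). The KO control began lower at 0 min for each of these 5 comparisons of the controls, and the same 0 min libraries enter both values.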

How the results depend on the processing

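Under all settings tried, the rescue responses of Id1 and Id2, the overexpression response of Id2 and the Id1 difference between backgrounds in the long course kept their direction and their side of the threshold. Each further sentence gives how many of the 8 genes passed. With replicates left out in turn, the long-course counts ran from 3 to 4 for the KO control at 0 min (5 with all), 0 to 1 for the KO transgene line at 0 min (1), 0 to 2 for the WT transgene line at 0 min (3), 1 to 1 for the course difference of the controls (3), 1 to 5 for overexpression (6) and 1 to 3 for its difference from rescue (3). In the short course they ran from 1 to 2 for the KO control over time (4), 0 to 1 for the course difference (2) and 0 to 0 for rescue (1). Library totals without TMM gave 2 for the KO transgene line at 0 min of the long course. Without the filter the short course gave 2 for the KO transgene line at 0 min (0 with it) and 2 for rescue. Fitting only the lines compared gave 1 for the WT transgene line at 0 min of the short course (0 with all lines), 2 for the KO control over time and 1 for the course difference; 1 coefficient per time gave 2 for the KO control over time. The cause was not tested. Of single genes, Id3 in the KO control over the short course ran from -0.27 without replicate 1 to 0.0204 without replicate 2 (-0.14 with both), and the Smad7 course difference from -0.0581 without replicate 1 to 0.35 without replicate 2 (0.16 with both). Over all genes, calls in the short rescue response went from 328 to 1131 without the filter and to as few as 52 without 1 replicate, and in the long rescue response from 2024 to as few as 742. Replicate numbers did not pair the libraries: same-numbered libraries deviated with correlations of -0.106 to 0.126 in the long and -0.099 to 0.171 in the short course. A replicate block changed 1 of 160 values, Id3 in the long rescue response (adjusted p = 0.0246, edgeR), and left 159 as they were. Leaving out a replicate gave no test at 0 min of the short course. Bmp4, with 25 to 169 counts per library, is the gene whose differences depth limits most.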
